A study of Mus musculus with 12 samples.

Results

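The genes described here are 10 of the genes that encode mouse selenoproteins: Gpx1, Gpx4, Txnrd1, Txnrd2, Msrb1, Selenow, Selenof, Selenok, Selenot and Selenos. They were taken by gene symbol from a list that has no threshold on a measured value, and all 10 were found among the 55335 gene rows counted in each assay. Thymocytes, the developing T cells of the thymus, came from 3 wild type (WT) mice and 3 mice with a knockout (KO) of miR-181a/b-1, a cluster of microRNA genes, all 6 weeks old and kept free of specific pathogens. Each genotype was read by RNA-seq, which samples the transcripts present, and by ribosome footprinting, which sequences the stretches of mRNA held inside ribosomes. This gave 12 libraries in 4 groups of 3, and all cells were strained through a 70 µm mesh and put into cycloheximide, a drug that halts elongating ribosomes, at 0.1 mg/ml. The labels name no Cre driver, strain or sex, and they do not tie an RNA-seq library to a footprint library of the same mouse.

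A selenoprotein carries selenocysteine, an amino acid with selenium in place of the sulfur of cysteine, and it is usually the residue that does the chemistry. Selenocysteine is encoded by UGA, otherwise a stop codon, and ribosomes read through it only when the mRNA has a stem-loop called the SECIS element in its 3' untranslated region, to which dedicated proteins bind. In T cells this family is known for handling peroxides: loss of Gpx4 or of Txnrd1 in the T cell lineage is known to impair survival or expansion of T cells. MicroRNAs of the miR-181 family are abundant in thymocytes and tune T cell receptor signalling.

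The mature sequences of the deleted pair are shown with their shared seed, the bases that pair with targets. They are from RefSeq on GRCm38.p6, with capitals marking the seed (bases 2 to 8). The miR-181a strand lies at chr1:137966468-137966490 and the miR-181b strand at chr1:137966650-137966673, both on the plus strand.
mmu-miR-181a-5p: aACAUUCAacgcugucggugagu
mmu-miR-181b-5p: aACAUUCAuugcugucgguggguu
Both hold the same seed, ACAUUCA, and they differ only outside it.

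The libraries held 4479182 to 8180286 reads in genes in RNA-seq and 4069968 to 17859770 in footprints. The Mir181a-1 row had 2898, 2370 and 1535 footprint reads in WT and 5, 16 and 4 in KO, whereas in RNA-seq it had 25, 25 and 7 in WT and 16, 10 and 41 in KO. This separates the genotypes in footprints and leaves the labels of the RNA-seq libraries unchecked, so that in RNA-seq WT and KO mean the libraries labelled so. All 8 thymocyte markers were present in every library, at a summed 11350 to 13400 CPM (reads of a gene scaled to the TMM-adjusted total of its library) in RNA-seq and 20390 to 22050 in footprints; summed markers of the 7 other cell types were at 240 CPM or lower. Of these 7 sums, 4 did not overlap between genotypes in RNA-seq and 3 in footprints. Erythroid markers in RNA-seq lay at 52.9 to 61.4 CPM in WT and 37.4 to 44.5 in KO, carried by Hbb-bs (means of 45.2 and 29.4), with 3 of 4 genes lower in KO by mean; in footprints the sums overlapped (26.6 to 54.99 and 25.3 to 57.9). Thymic epithelial markers lay at 18.9 to 22.2 and 14.2 to 17.3 CPM in RNA-seq, with 5 of 5 genes lower in KO by mean. In footprints they lay at 75.5 to 82.3 and 59.8 to 70.5, carried by Epcam (means of 38.3 and 26.1), while 3 of 5 genes were higher in KO by mean. Fibroblast markers in RNA-seq lay at 28.1 to 29.9 and 25.1 to 26.6 CPM, and dendritic cell markers in footprints at 30.7 to 37.6 and 23.1 to 30.6, each with 3 of 3 genes lower in KO by mean. Endothelial sums lay higher in KO, at 201 to 210 against 168 to 174 CPM in RNA-seq and 150 to 154 against 139 to 143 in footprints, but they are almost all Pecam1, and the other marker, Cdh5, went the other way (means of 1.25 in WT and 0.816 in KO in RNA-seq, 3.04 and 2.41 in footprints). Their part in the results was not tested. These are bulk samples, so fewer cells of a type and less RNA per cell cannot be told apart.

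A property of the deposited counts, which their authors call adjusted, touches every difference between genotypes. Where a WT library lay above the WT mean for a gene, the KO library with the same number tended to lie below the KO mean by about as much. Over 9756 genes in RNA-seq such deviations correlated at r = -0.98 to -0.96, and over 8652 genes in footprints at -0.99 to -0.98, whereas libraries of different numbers gave r = 0.23 to 0.69 and 0.36 to 0.64. The positive values follow from the negative ones, because deviations from a group's mean cancel within the group. All these correlations run across genes, which are not independent replicates. The selenoprotein genes followed it without exception, with opposite signs in 30 of 30 same-numbered pairs in RNA-seq and in 30 of 30 in footprints. The spread within a group is therefore not the spread between mice alone, and the p-values below measure only the spread of these adjusted values. Fits without a block treat same-numbered libraries as independent, so their FDR and intervals are likely too small. For the comparisons of genotypes, intervals are therefore also given with the replicate number as a block.

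**Figure D1:**
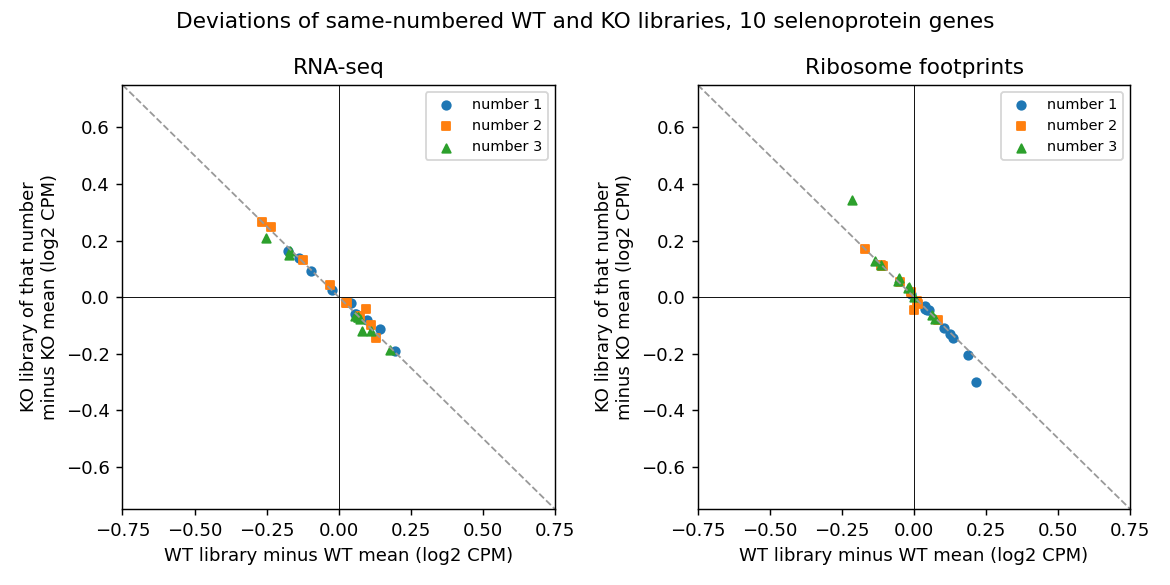
Deviation of each WT library from the WT mean (x axis) and of the KO library with the same number from the KO mean (y axis), in log2 CPM, for 10 genes in RNA-seq (left) and footprints (right); color and shape mark the replicate number. All 30 points of each panel lie in the quadrants of opposite sign, close to the dashed line of equal and opposite deviations.

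The first comparison set footprints against RNA within WT thymocytes, which asks how many ribosome-held reads a gene had for its RNA reads relative to the typical gene. Of 9 genes tested, 6 stood above the typical gene. Gpx4 stood highest, followed by Selenof, Selenos, Gpx1 and Msrb1 at about the same ratio, and then Txnrd1. The other 3, Selenow, Selenot and Selenok, stood below it. All 9 genes with enough reads passed the test (edgeR, Benjamini-Hochberg adjusted p, here FDR, under 0.05), and Txnrd2 was too weakly covered to be tested. In this comparison 83.6% of all 11474 genes tested were called, 42.0% above and 41.5% below the typical gene, so a call by itself says little, and the place of a gene among all genes is given beside it. The median log2 ratio of the 9 genes was 1.46 and that of all genes -0.001. The 8 other selenoprotein genes tested, described below, had a median of 0.13, so 1.46 is not read as a trait of selenoproteins. The ratio is per gene and not per length: footprints come from the coding sequence and RNA reads from the whole transcript. The sources used here hold no transcript lengths. Counts per gene also do not separate footprints before the UGA from those after it. A high ratio is therefore not a measure of full-length selenoprotein made.

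**Figure D2:**
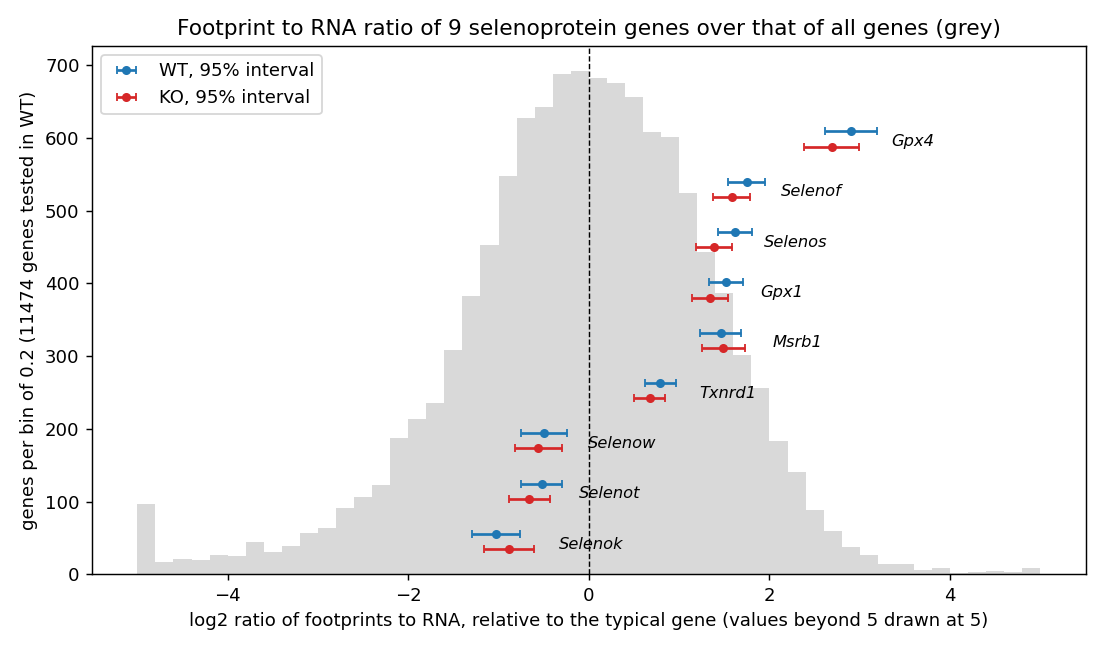
Log2 ratio of footprints to RNA relative to the typical gene (x axis) for 9 selenoprotein genes in WT (blue) and KO (red), with 95% intervals from edgeR; their height on the plot carries no value. The grey histogram counts the 11474 genes tested in WT (y axis); Gpx4 lies in the right tail at 2.90 and Selenok left of the middle at -1.02.

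Gpx4 (ENSMUSG00000075706.10) is the glutathione peroxidase that reduces lipid peroxides inside membranes and holds back ferroptosis, a form of death driven by lipid oxidation. Its RNA level was 5.41, 4.32 and 5.92 CPM in the WT libraries and 4.68, 5.92 and 4.24 CPM in KO. Its footprint level was 35.0, 31.4 and 35.4 CPM in WT and 27.6, 30.7 and 27.3 CPM in KO. The genotypes overlapped in RNA, while in footprints every KO library lay below every WT library. The log2 ratio of footprints to RNA was 2.90 in WT (SE 0.13, n = 3 libraries per assay, edgeR FDR 7.18e-11), a 7.47-fold excess over the typical gene and higher than in 99.1% of genes. In KO it was 2.69 (SE 0.14, edgeR FDR 4.54e-10).

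The RNA of Gpx4 is counted with doubt, because the row named as its pseudogene, Gpx4-ps2, held almost as many RNA-seq reads. Over the 6 RNA-seq libraries Gpx4 had 199 reads and Gpx4-ps2 187, against 2426 and 121 over the 6 footprint libraries. Gpx4-ps2 had 32, 25 and 25 RNA-seq reads in WT and 29, 27 and 49 in KO. Reads with several alignments were set apart by the counting (13.1% to 20.5% of RNA-seq reads and 17.7% to 18.6% of footprint reads), so neither row holds them. With the rows of Gpx4 and Gpx4-ps2 summed, an alternative added after seeing the data, the WT log2 ratio was 2.17 (SE 0.12, edgeR FDR 5.13e-10), above 96.2% of genes, and the KO ratio 1.63 (SE 0.13, edgeR FDR 2.63e-08). On the summed rows Gpx4 thus still had the highest ratio of the listed genes, but its 95% intervals, 1.91 to 2.43 in WT and 1.36 to 1.91 in KO, met those of Selenof (1.54 to 1.96 and 1.38 to 1.78).

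Gpx1 (ENSMUSG00000063856.7) encodes the abundant cytosolic glutathione peroxidase, which reduces hydrogen peroxide. Its RNA level was 36.6, 41.0 and 43.5 CPM in WT and 40.8, 36.5 and 34.1 CPM in KO. Its footprint level was 103, 93.1 and 106 CPM in WT and 84.8, 93.7 and 82.2 CPM in KO. Only KO replicate 2 kept the footprint groups from separating, as it lay just above WT replicate 2. The log2 ratio of footprints to RNA was 1.52 in WT (SE 0.09, edgeR FDR 7.70e-10; above 88.7% of genes) and 1.34 in KO (SE 0.09, edgeR FDR 6.76e-09).

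The thioredoxin reductases pass electrons from NADPH to thioredoxins, and Txnrd1 (ENSMUSG00000020250.10) is the cytosolic one. It had 79.2, 78.7 and 83.6 CPM in WT RNA-seq and 73.1, 74.1 and 68.7 CPM in KO RNA-seq. In footprints it had 130, 117 and 116 CPM in WT and 98.7, 110 and 111 CPM in KO. The KO libraries lay below all WT libraries in both assays. The ratio of Txnrd1 was the lowest of the 6 that stood above the typical gene, at log2 0.79 in WT (SE 0.08, edgeR FDR 2.56e-07; above 72.7% of genes) and 0.68 in KO (SE 0.08, edgeR FDR 2.33e-06). In RefSeq its span overlaps Eid3 and the noncoding gene Gm38560, and the strand setting of the counting is not given in the sources used here.

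Txnrd2 (ENSMUSG00000075704.16), the mitochondrial reductase, was close to the limit of the data. It had 6, 9 and 9 RNA-seq reads in WT and 8, 4 and 7 in KO, and 32, 27 and 13 footprint reads in WT and 15, 27 and 10 in KO. It passed the filter on low counts in footprints alone. With no filter its log2 ratio of footprints to RNA was 0.75 in WT (SE 0.32, edgeR FDR 0.0406) and 1.12 in KO (SE 0.42, edgeR FDR 0.0131), values that rest on 24 and 19 RNA-seq reads.

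Msrb1 (ENSMUSG00000075705.12) encodes the methionine sulfoxide reductase that repairs oxidized methionines of the R form, including those of actin. Its RNA level was 17.8, 15.6 and 17.9 CPM in WT and 16.1, 18.5 and 16.0 CPM in KO. Its footprint level was 44.6, 37.5 and 40.1 CPM in WT and 39.1, 46.8 and 44.2 CPM in KO. The genotypes overlapped in both assays, and in each the highest KO library was replicate 2, the number at which WT was lowest. Its log2 ratio was 1.46 in WT (SE 0.11, edgeR FDR 9.66e-09) and 1.49 in KO (SE 0.11, edgeR FDR 1.60e-08). Of the 6 genes above the typical gene it was the one with a higher value in KO, but ratios in WT and KO each have a zero of their own, and the difference between genotypes was tested only as translation.

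Selenow (ENSMUSG00000041571.9) encodes a small thioredoxin-like protein whose own substrate is not settled. It had 86.8, 62.9 and 79.8 CPM in WT RNA-seq and 64.4, 88.5 and 69.7 CPM in KO RNA-seq, with a coefficient of variation of 16.1% and 17.1%. In footprints it had 53.1, 41.4 and 46.0 CPM in WT and 39.8, 51.7 and 47.1 CPM in KO. The low library of WT and the high library of KO were both replicate 2, in both assays. Its log2 ratio of footprints to RNA was -0.50 in WT (SE 0.12, edgeR FDR 0.00127; above 35.2% of genes) and -0.56 in KO (SE 0.12, edgeR FDR 7.82e-04).

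The 4 remaining genes encode proteins of the endoplasmic reticulum (ER), and they did not share a ratio. Selenof (ENSMUSG00000037072.15) and Selenos (ENSMUSG00000075701.9) had ratios above 91.9% and 90.1% of genes in WT, while Selenot and Selenok lay above only 34.6% and 21.8%. Selenof binds UGGT, the enzyme that checks the folding of glycoproteins, and Selenos is a membrane protein that helps pull misfolded proteins out of the ER with Derlins and the ATPase VCP.

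Selenof had 64.2, 63.0 and 53.2 CPM in WT RNA-seq and 60.1, 60.8 and 70.6 CPM in KO RNA-seq. In footprints it had 181, 185 and 159 CPM in WT and 173, 168 and 195 CPM in KO. The libraries numbered 3 stood apart in both assays, low in WT and high in KO. Its log2 ratio was 1.75 in WT (SE 0.10, edgeR FDR 3.91e-10) and 1.58 in KO (SE 0.09, edgeR FDR 1.40e-09).

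Selenos had 19.2, 21.1 and 21.6 CPM in WT RNA-seq and 23.1, 21.3 and 20.6 CPM in KO RNA-seq. Its footprint level was 54.5, 55.4 and 54.9 CPM in WT and 53.0, 52.0 and 52.5 CPM in KO. Footprints of Selenos had the smallest spread of the 10 genes, with a coefficient of variation of 0.764% in WT and 0.891% in KO. They rest on 579 to 990 reads per library in WT and 214 to 801 in KO. Counting that many reads would alone spread the values more, so this spread is not read as a trait of the gene. Its log2 ratio was 1.62 in WT (SE 0.09, edgeR FDR 3.66e-10) and 1.38 in KO (SE 0.09, edgeR FDR 4.09e-09).

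Selenot (ENSMUSG00000075700.9) encodes a thioredoxin-like protein of the ER membrane. It had 126, 124 and 96.1 CPM in WT RNA-seq and 98.6, 99.7 and 123 CPM in KO RNA-seq. In footprints it had 75.9, 69.0 and 64.2 CPM in WT and 58.0, 64.4 and 68.7 CPM in KO. In RNA-seq the libraries numbered 3 were low in WT and high in KO, to the point that WT replicate 3 lay below every KO library. Its log2 ratio was -0.52 in WT (SE 0.11, edgeR FDR 3.70e-04) and -0.66 in KO (SE 0.11, edgeR FDR 4.59e-05). Its copy Selenot-ps had 2 RNA-seq and 37 footprint reads against 4468 and 5133 for Selenot.

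Selenok (ENSMUSG00000042682.9) encodes an ER membrane protein that works with the acyltransferase Zdhhc6 to attach palmitate to the calcium channel IP3R, a step known to matter for calcium flux in stimulated immune cells. It had 19.6, 20.8 and 16.8 CPM in WT RNA-seq and 19.2, 17.5 and 21.8 CPM in KO RNA-seq. In footprints it had 8.30, 8.17 and 7.77 CPM in WT and 9.74, 9.88 and 10.6 CPM in KO. The footprint groups did not overlap, and here the KO libraries were the higher ones. Its log2 ratio of footprints to RNA was -1.02 in WT (SE 0.12, edgeR FDR 2.30e-06), a level 2.03-fold lower than the typical gene, and -0.88 in KO (SE 0.13, edgeR FDR 1.81e-05). The 6 rows named as its pseudogenes had 15 RNA-seq and 14 footprint reads in all, against 774 and 673 for Selenok.

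The order of ratios in WT ran from Gpx4 through Selenof, Selenos, Gpx1, Msrb1, Txnrd1, Selenow and Selenot to Selenok. The 95% interval of Gpx4 counted on its own row, 2.61 to 3.19, did not meet that of any other listed gene. With the row of Gpx4-ps2 added, its interval of 1.91 to 2.43 met that of Selenof. Selenof (1.54 to 1.96), Selenos (1.43 to 1.80), Gpx1 (1.33 to 1.71) and Msrb1 (1.23 to 1.69) overlapped one another. Txnrd1 stood alone at 0.62 to 0.96. Selenow (-0.75 to -0.24) and Selenot (-0.75 to -0.29) could not be told apart, and the interval of Selenok, -1.29 to -0.76, lay just below both. In KO the interval of Selenok, -1.16 to -0.60, met those of Selenow (-0.82 to -0.29) and Selenot (-0.89 to -0.43). The order among the 4 overlapping genes differed in KO, where Msrb1 followed Selenof and Gpx1 came after Selenos. In KO the same 6 genes were called above and the same 3 below the typical gene, against 82.3% of 10917 genes called in either direction, and the median was 1.34. The KO values share the mirrored deviations described above and are not independent of those in WT.

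**Figure D3:**
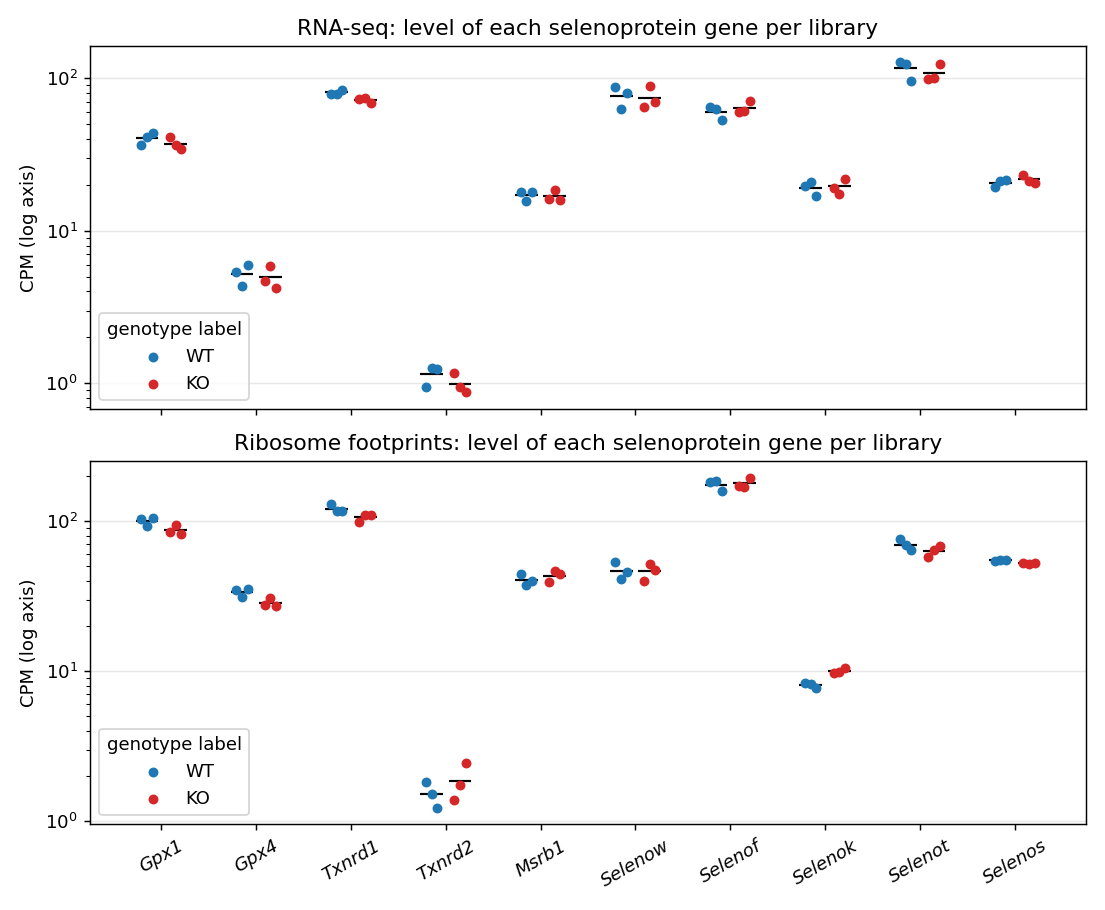
CPM of each selenoprotein gene in every library (y axis, log scale), in RNA-seq (top) and footprints (bottom); blue points are WT, red points KO, in the order of replicates 1 to 3, and the bar is the mean of 3. Selenof and Selenos stand higher in the lower panel than in the upper one, Selenot and Selenok stand lower, and WT and KO points lie close together for every gene.

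The second comparison set KO against WT. In RNA-seq 0 of 9 tested selenoprotein genes changed, against 6.91% of 13652 genes called, and the smallest FDR was 0.154 (Txnrd1, edgeR). In footprints 0 of 10 changed, against 17.6% of 13509 genes, with Selenok the nearest to a call. In footprints beyond the RNA, the measure of a change in translation, 0 of 9 changed, against 0.211% of 11854 genes, and the smallest FDR was 0.533. Counted at an unadjusted p under 0.05, there were 1, 4 and 0 genes, against 23.8%, 33.1% and 14.0% of all genes, and DESeq2 called 0 in each, with smallest adjusted p-values of 0.652, 0.183 and 0.832, where it called 3.90%, 10.5% and 0.421% of all genes. With the replicate number as a block, edgeR called 0 of the listed genes in each comparison, against 0.806%, 3.02% and 0.0169% of all genes. The median log2 difference of the listed genes, KO minus WT, was -0.05 in RNA-seq (3 above 0 and 6 below), -0.04 in footprints (4 and 6) and -0.05 in translation (3 and 6), beside -0.0005, -0.009 and 0.01 for all genes.

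**Figure D4:**
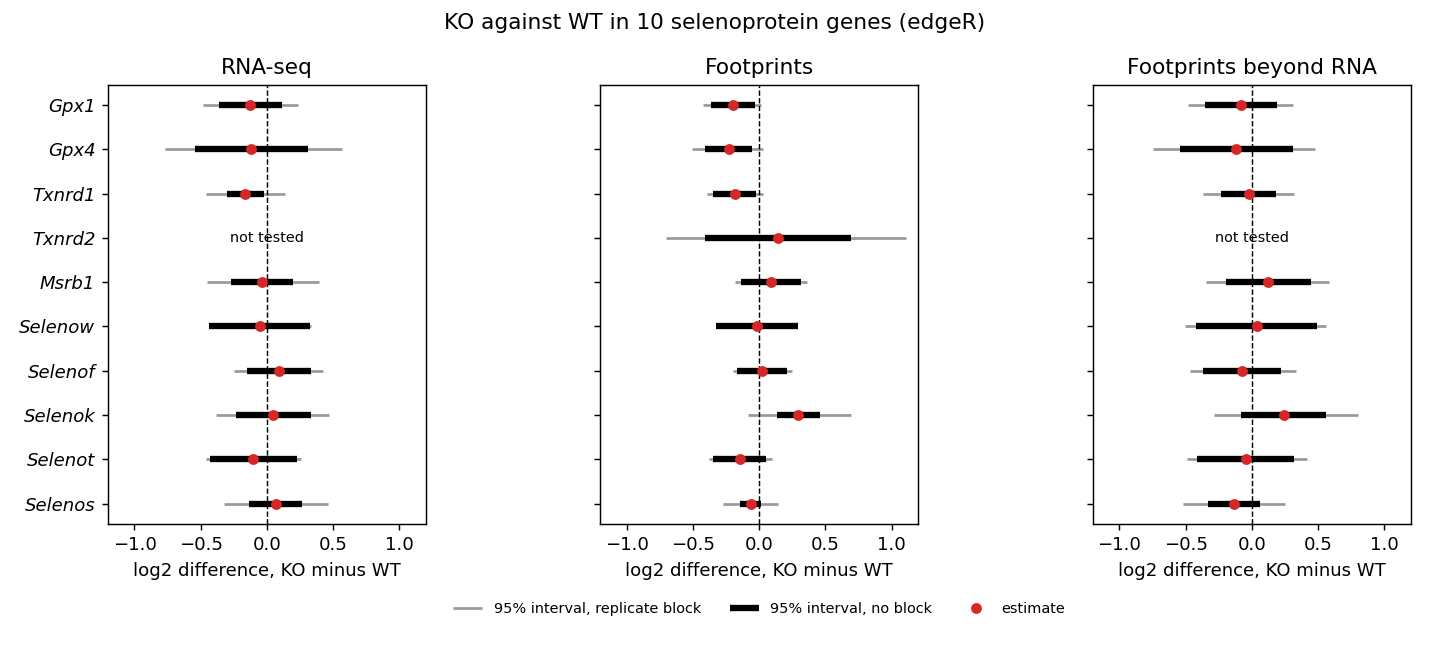
Log2 difference of KO minus WT (x axis) per selenoprotein gene in RNA-seq, footprints and footprints beyond RNA, from edgeR; red points are estimates, black bars 95% intervals without a block and grey bars those with the replicate number as a block. Every grey interval spans 0, and the widest, of Txnrd2 in footprints, runs from -0.71 to 1.11.

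The footprints of 4 genes lay farthest from 0 by p. Selenok differed by log2 0.30 (SE 0.07, edgeR FDR 0.0564), with a 95% interval of 0.13 to 0.46 that widened to -0.08 to 0.69 with the block. Its unadjusted p of 0.0105 by edgeR is larger than this SE would give, so the SE and the interval without the block are too narrow. Gpx4 differed by -0.23 (SE 0.07, edgeR FDR 0.0793; -0.41 to -0.05, or -0.51 to 0.03 with the block). Gpx1 and Txnrd1 differed by -0.20 and -0.19 (edgeR FDR 0.0998 and 0.109), with intervals under the block of -0.42 to 0.01 and -0.40 to 0.03. The WT and KO footprint libraries did not overlap for 4 genes, Selenok higher and Gpx4, Txnrd1 and Selenos lower in KO, where 38.1% of all genes did not overlap. In RNA-seq 1 gene, Txnrd1, did not overlap, against 30.9% of all genes, at log2 -0.16 (SE 0.06, interval with the block -0.46 to 0.14).

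Of the 4 genes without overlap, Selenos had the smallest difference and the smallest SE. Selenos differed in footprints by log2 -0.07 (SE 0.03, edgeR FDR 0.304), and its interval with the block was -0.27 to 0.14. Its adjusted values varied less than the counting of its reads would give, so this SE is too small and the lack of overlap says little. In the other direction, Txnrd2 differed by 0.14 in footprints (SE 0.23, edgeR FDR 0.76), and its few reads left an interval with the block of -0.71 to 1.11. Selenow, Selenof, Selenot and Msrb1 differed by -0.02, 0.02, -0.15 and 0.09 in footprints, with FDR of 0.951, 0.903, 0.274 and 0.567 by edgeR, and with overlapping libraries in each case.

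What these data could have missed follows from the intervals with the block. In RNA-seq those of the 9 tested genes ran from -0.77 to 0.57, both limits set by Gpx4, and in footprints those of the 9 genes other than Txnrd2 ran from -0.51 to 0.69. In translation they ran from -0.75 (Gpx4) to 0.80 (Selenok). No such interval left out 0, with Gpx4 counted on its own row. Differences within these limits could have been missed with 3 mice per genotype. Msrb1 had a translation difference of 0.12 (SE 0.15, edgeR FDR 0.76), and Selenok, with the largest, had 0.24 (SE 0.15, edgeR FDR 0.533).

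The copy of Gpx4 bears on its difference between genotypes as well. The Gpx4-ps2 row differed by log2 0.47 in RNA-seq (SE 0.23, edgeR FDR 0.266) and by -1.05 in footprints (SE 0.20, edgeR FDR 0.0162, or 0.278 with the block), from 92 footprint reads in WT and 29 in KO. With the 2 rows summed, Gpx4 differed by -0.26 in footprints (SE 0.07, edgeR FDR 0.0419), which is a call, by 0.17 in RNA-seq (SE 0.16, edgeR FDR 0.566), where Gpx4 alone gave -0.12 (SE 0.18, edgeR FDR 0.746), and by -0.44 in translation (SE 0.17, edgeR FDR 0.28). The direction of its RNA difference and its call in footprints thus depend on how the copy is counted. The summed rows were fitted without the block only, where intervals are likely too narrow. Their intervals were -0.43 to -0.10 in footprints and -0.81 to -0.07 in translation, and both left out 0.

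The authors' deposited tables of KO against WT hold 9 of the 10 genes, without Txnrd2, and mark none of them significant, where they mark 4.12% of genes in RNA-seq and 10.6% in footprints. In the authors' deposited table for footprints the log2 fold change of Selenok is 0.23 with an adjusted p of 0.421, that of Gpx4 -0.21 with 0.266, and that of Gpx1 -0.19 with 0.169.

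Genes that work beside the listed ones were taken as 4 lists: other selenoproteins, the proteins that make and insert selenocysteine, redox partners without selenocysteine, and ER partners. In the ratio of footprints to RNA in WT, the redox partners had a median close to that of the listed selenoproteins, and the medians of the remaining lists lay near the typical gene. All 16 redox partners tested were called, 15 above and 1 below the typical gene, with a median log2 ratio of 1.49. Of all genes 83.6% were called, 42.0% above and 41.5% below, so being called says little by itself. Prdx1 and Prdx3, peroxiredoxins that use cysteine to reduce peroxides, had ratios of 2.89 and 2.04, and Cat, the catalase, and Txn1, the cytosolic thioredoxin that Txnrd1 reduces, had 2.27 and 2.26. Glrx2, a mitochondrial glutaredoxin, was the one below, at -0.97 (named after its value was seen). The ratio of Prdx1 was above that of 99.0% of genes, next to Gpx4. Copies of the partner genes elsewhere in the genome were not examined.

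**Figure D5:**
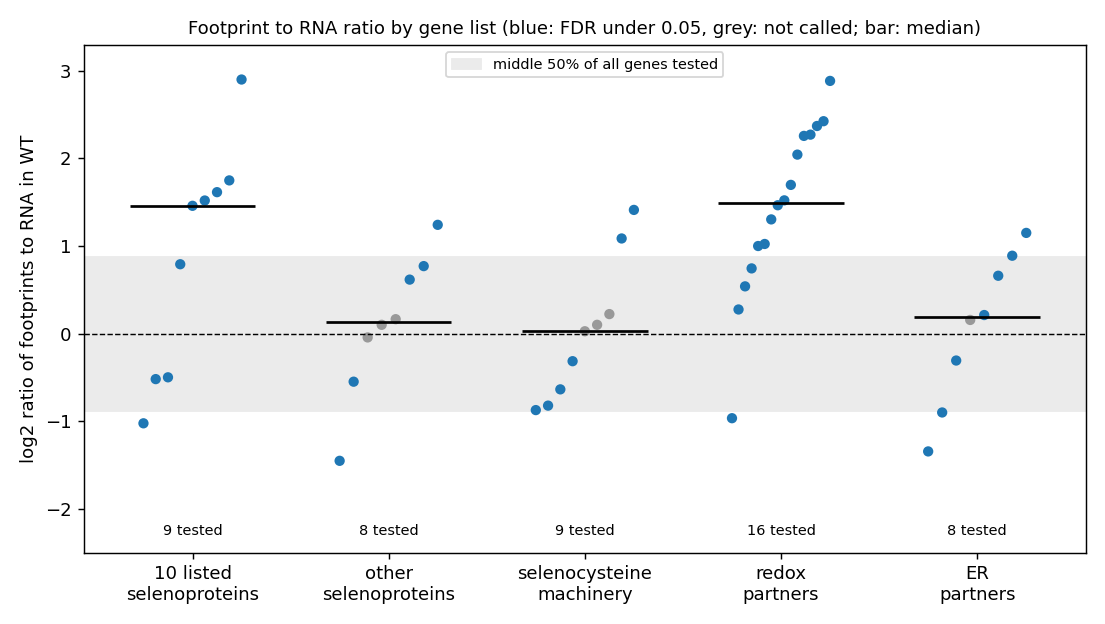
Log2 ratio of footprints to RNA in WT (y axis) for the genes of 5 lists, 1 point per gene tested, sorted within each list; blue points passed FDR under 0.05, grey points did not, bars are medians, and the grey band holds the middle 50% of all genes. The medians of the listed selenoproteins (1.46) and the redox partners (1.49) lie above the band, those of the other lists within it.

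Of the 14 other selenoprotein genes, 8 had enough reads in both assays, with a median of 0.13. Among these 8, 3 were called above and 2 below the typical gene, against 42.0% and 41.5% of all genes. Selenoh, a nuclear protein, had a log2 ratio of 1.24 (SE 0.12, edgeR FDR 1.44e-07) and Selenop, the secreted carrier of selenium, 0.62 (SE 0.09, edgeR FDR 9.77e-06). Dio2, a deiodinase that activates thyroid hormone, had -1.45 (SE 0.17, edgeR FDR 1.77e-06), and Selenoi, an enzyme of phospholipid synthesis, -0.55 (SE 0.09, edgeR FDR 4.82e-05). Over both lists of selenoproteins the ratio ranged from -1.45 (Dio2) to 2.90 (Gpx4).

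All 9 genes of the selenocysteine machinery had enough reads in both assays, with a median ratio of 0.03. Calls above the typical gene numbered 2 and calls below it 4, against 42.0% and 41.5% of all genes. Eefsec, the elongation factor that carries selenocysteyl-tRNA to the ribosome, had a log2 ratio of 1.41 (SE 0.07, edgeR FDR 2.31e-10), and Sephs1, a relative of the selenophosphate synthetase, had 1.09 (SE 0.08, edgeR FDR 9.88e-09). Sepsecs, which makes the final step to selenocysteine on its tRNA, had -0.87 (SE 0.13, edgeR FDR 1.74e-05), and Secisbp2l, a relative of the SECIS-binding protein, had -0.82 (SE 0.08, edgeR FDR 3.40e-07). Of the 8 ER partners, 4 were called above and 3 below, beside the same shares of all genes, with a median of 0.18. Uggt1, which Selenof binds, had 1.15, and Derl2, a Derlin, -1.34.

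Between genotypes, edgeR's calls among the 4 lists were all in footprints. In RNA-seq 0 of 8 other selenoproteins, 0 of 9 machinery genes, 0 of 16 redox partners and 0 of 8 ER partners changed by edgeR, where 6.91% of all genes were called, with 3, 1, 2 and 0 at an unadjusted p under 0.05, against 23.8% of all genes. DESeq2 called 1 redox partner in RNA-seq, Gsr, where it called 3.90% of all genes. In footprints 1 of 9 other selenoproteins fell, no machinery gene of 9 was called (edgeR, 4 at an unadjusted p under 0.05, against 33.1% of all genes), 2 of 18 redox partners changed in opposite directions, and 2 of 8 ER partners fell, where 17.6% of all genes were called. In translation 0 of 8, 0 of 9, 0 of 16 and 0 of 8 were called by edgeR, where 0.211% of all genes were, with 2, 0, 2 and 4 at an unadjusted p under 0.05, against 14.0% of all genes.

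Gsr, glutathione reductase, regenerates the glutathione that Gpx1 and Gpx4 consume, and it was the largest of these changes. Its RNA level was 31.2, 44.1 and 29.9 CPM in WT and 19.0, 10.7 and 19.5 CPM in KO. Its footprint level was 72.9, 84.0 and 68.0 CPM in WT and 41.5, 35.3 and 44.4 CPM in KO. The genotypes were well apart in both assays, with the numbers 2 at the extremes. Footprints of Gsr fell by 0.93 on the log2 scale (SE 0.11, edgeR FDR 0.00383, and 0.00373 with the block), a level 1.90-fold lower in KO, and the call held in 10 of 10 other settings run. In RNA-seq the log2 difference was -1.05 (SE 0.24) with an edgeR FDR of 0.0536, 0.0847 with the block and a DESeq2 adjusted p of 1.37e-04, and in translation it was 0.12 (SE 0.26, edgeR FDR 0.889). Of the marker sums given above, those of thymic epithelium and dendritic cells also lay lower in KO in footprints, where erythroid sums overlapped. The thymic epithelial sum there was carried by Epcam, while 3 of 5 genes were higher in KO by mean. In RNA-seq the sums of erythroid cells, thymic epithelium and fibroblasts lay lower in KO. Endothelial sums lay higher in KO in both assays. The part of these cell types in the lower Gsr was not tested.

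The remaining 4 calls in footprints were lost with the block. Gpx3, a secreted glutathione peroxidase and selenoprotein outside the list, fell by 0.76 (SE 0.17, edgeR FDR 0.0298), from 2.52, 2.57 and 2.08 CPM to 1.30, 1.36 and 1.96 CPM, with an FDR of 0.369 under the block and of up to 0.135 without 1 library; the call was lost without WT replicate 1 or 2 and without KO replicate 1 or 2. Sod2, the mitochondrial superoxide dismutase, rose by 0.20 (edgeR FDR 0.038, 0.359 with the block), a call lost without any 1 of the WT libraries or KO replicate 2 (FDR up to 0.141). Sel1l and Syvn1, the core of an ER ubiquitin ligase for misfolded proteins, fell by 0.16 and 0.29 (edgeR FDR 0.0163 and 0.0188, or 0.385 and 0.155 with the block). Neither was called without WT replicate 2 or KO replicate 2, and 1 of the pair was called when replicate 1 of either genotype or replicate 3 of KO was omitted.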

How the data were processed

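RNA-seq and ribosome footprint libraries of thymocytes (12 libraries, 3 per assay and genotype) were grouped by their titles. The authors deposited whole-number counts of reads per gene, which they named adjusted; what this adjusted was not given in the sources used here, and neither were strand setting, annotation and genome build. Per the submitters' processing notes the tools were FastQC, Bowtie2 2.5.1, STAR 2.7.10a, HTSeq 2.0.3 and DESeq2 1.40.2. Per the file headers, further rows hold reads outside genes, ambiguous or with several alignments; these 71.5% to 73.0% of RNA-seq and 26.9% to 27.7% of footprint reads were left out of totals. Tables of the authors' own comparisons, with log2 fold changes and p-values, were also deposited for both assays; their 12 per-library columns were not used. Symbols were matched for 54587 gene IDs by version, 567 without it and 6 from the authors' tables, leaving 175 unnamed.

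Counts were fitted with edgeR 4.0.16 in R 4.3.3 (TMM, filterByExpr with a minimum count of 10, quasi-likelihood test, Benjamini-Hochberg adjustment over all genes tested, FDR under 0.05). KO was compared with WT in each assay, translation as the interaction over all 12 libraries with TMM within each assay, and footprints with RNA within each genotype with TMM over its 6 libraries, so that the typical gene lies near 0. CPM are relative to the reads in genes after TMM scaling. The SE is the log2 value divided by the square root of F, and intervals are at 95%. For some genes whose libraries varied very little, among them Selenok and Selenos in footprints, the p-value was larger than this SE gives. Their SE and intervals without the block are too narrow. Fits were tested on simulated data with known changes. The listed genes, their partner lists and the marker lists were chosen with earlier results of these data known; values are given for all listed genes and, per partner list, for at most 4 called genes by FDR. Alternatives were RLE size factors, no filter, DESeq2 1.42.0, FDR under 0.1, the replicate number as a block, TMM within each assay for ratios, the omission of each library and, added after seeing the data, the summed Gpx4 rows. Promoters and proteins are not shown.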

Additional observations from a re-analysis of the deposited data

How the results depend on the processing

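The counts of selenoprotein genes called kept within 1.5 times of the reported ones in 67 of 69 alternatives. In footprints, KO against WT, 3 genes were called at FDR under 0.1 and 1 with the Gpx4 rows summed, where 0 were reported. Of all genes 17.6% were called in footprints at FDR under 0.05, and the shares under these 2 alternatives are not given here. The counts of 3 and 1 are therefore not read as a result about the listed genes. The same-numbered WT and KO libraries deviated by nearly equal and opposite amounts, so their adjusted values do not vary independently. The reported fits without the block treat them as independent, so their FDR and intervals are likely too small. The fit with the block, run as an alternative, allows for the numbers and is the more cautious one. With the replicate number as a block, 0 selenoprotein genes were called in RNA-seq, footprints or translation (smallest FDR 0.786, 0.345 and 0.998), and 9 in each ratio. Over all genes, edgeR called 943 in RNA-seq without the block and 110 with it, 2376 and 408 in footprints, and 25 and 2 in translation (17 with RNA-seq and footprints of 1 number as a block); DESeq2 gave 532, 1248 and 46. In the partner lists, the footprint calls ranged from 0 to 2 for other selenoproteins, 1 to 5 for redox partners and 0 to 3 for ER partners. The reported fit tested 9, 18 and 8 genes of these lists. Over all genes the share called was 17.6% without the block and 3.02% with it, and that at FDR under 0.1 is not given here. The ranges are therefore not read as a result about the lists.

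Directions changed for differences near 0. With the Gpx4 rows summed its RNA difference was 0.17. Without 1 library at a time the RNA difference ranged from -0.191 to 0.0423 for Selenow, from -0.0494 to 0.119 for Selenok and from -0.0977 to 0.0003 for Msrb1. Footprint differences ranged from -0.138 to 0.102 for Selenow and from -0.0480 to 0.0596 for Selenof. Translation differences ranged from -0.227 to 0.0091 for Gpx4, -0.0597 to 0.0358 for Txnrd1, -0.0788 to 0.169 for Selenow, -0.140 to 0.0071 for Selenof and -0.114 to 0.0716 for Selenot. The cause was not tested. Ratios of footprints to RNA kept their direction and call in 11 of 11 alternatives for each of the 9 genes in both genotypes. Scaling by library totals between assays moved the median log2 ratio of all genes by -0.25 in WT and -0.09 in KO. Depth limits Txnrd2 in all fits and the RNA of Gpx4, which had 25 to 43 reads per library.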
